A study of Rattus norvegicus with 8 samples.

Results

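Dorsal root ganglia of rats given imiquimod (IMQ) and epidural lidocaine were set against ganglia of untreated rats, gene by gene. The genes are those that appear in both deposited tables, 1 of IMQ against untreated (WT) ganglia and 1 of lidocaine plus IMQ against IMQ alone. They number 560 of the 4351 genes in either table, or 13.5% of the 4136 genes in the first table and 72.3% of the 775 genes in the second. In the lidocaine group imiquimod was put on the back skin for 6 days and 1% lidocaine was injected epidurally on 4 days, beginning on day 3 (n = 2). The IMQ group had the same skin treatment without the injections (n = 3), and the WT group had neither (n = 3). The rats were of the Sprague Dawley strain and weighed 250 g, and ganglia were taken on day 7. The labels describe no vehicle cream and no epidural injection without lidocaine, so the effects of the drug and of the injection cannot be told apart. They do not say that each sample came from its own animal or which spinal levels were taken, so the p-values speak of the spread among the libraries, which may be technical.

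A dorsal root ganglion holds the cell bodies of sensory neurons, each wrapped by satellite glia, together with resident macrophages, blood vessels and a connective tissue sheath that continues the spinal meninges. Imiquimod activates Toll-like receptor 7 and, rubbed on rodent skin, gives a psoriasis-like inflammation carried by interleukin 1, interleukin 23 and interleukin 17. Lidocaine blocks the voltage-gated sodium channels that carry impulses along sensory fibres. The comparison asks which genes that differed in IMQ ganglia stayed above the untreated level under lidocaine, which came back to it and which lay below it.

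Levels are log2(normalized count + 1) per library, and a difference is the lidocaine mean minus the WT mean on that scale, which understates the change of genes with few reads. Both tables list only genes whose group means differ by at least 1.00, which sets part of the outcome. A gene higher in both steps (3 genes) had to end above WT, and a gene lower in both (20 genes) had to end below it, each by more than 2 units. Genes higher under IMQ and lower under lidocaine (514 genes), or the reverse (23 genes), could end above, at or below WT. They still had to end at least 1.00 from the IMQ mean. Those less than 2 units from WT under IMQ therefore had to end nearer the WT mean. Unlisted genes were not analysed here, and no marker of neurons in the list used (21 symbols) was among the 560. Relative to the mean of all 8 libraries, the authors' normalization factors were 0.789 and 0.873 in lidocaine libraries, 0.808 to 0.912 in IMQ libraries and 1.09 to 1.34 in WT libraries. The 560 genes held 202745 and 266174 reads in lidocaine libraries, against 372180 to 634778 in WT libraries. This is whole tissue, in which fewer cells of a type and less RNA per cell cannot be told apart.

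Over the 560 genes the median difference of lidocaine plus IMQ from WT was 0.87, beside a median of 2.57 for IMQ alone against the same WT libraries. In limma's test 144 genes were above WT (25.7% of those tested, Benjamini-Hochberg adjusted p under 0.05), 22 were below (3.93%) and 394 were not separated from WT. Of the 22 below, 18 were among the 20 genes lower in both steps, and 3 of the 144 were the genes higher in both. The selection fixed the direction of these calls. A further measure bounded the difference rather than testing it against 0: for 56 genes (10%) the 90% interval lay wholly between -1 and 1. Of the 514 genes raised by IMQ and lowered under lidocaine, 141 were above WT (27.4%), 3 were below, 370 were not separated and 52 lay within that bound. Being raised by IMQ and lower under lidocaine is how these 514 entered the tables and is no result here. The lidocaine mean was nearer the IMQ mean in 187 of the 514 and nearer the WT mean in 327, a split that the selection fixes in part.

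**Figure D1:**
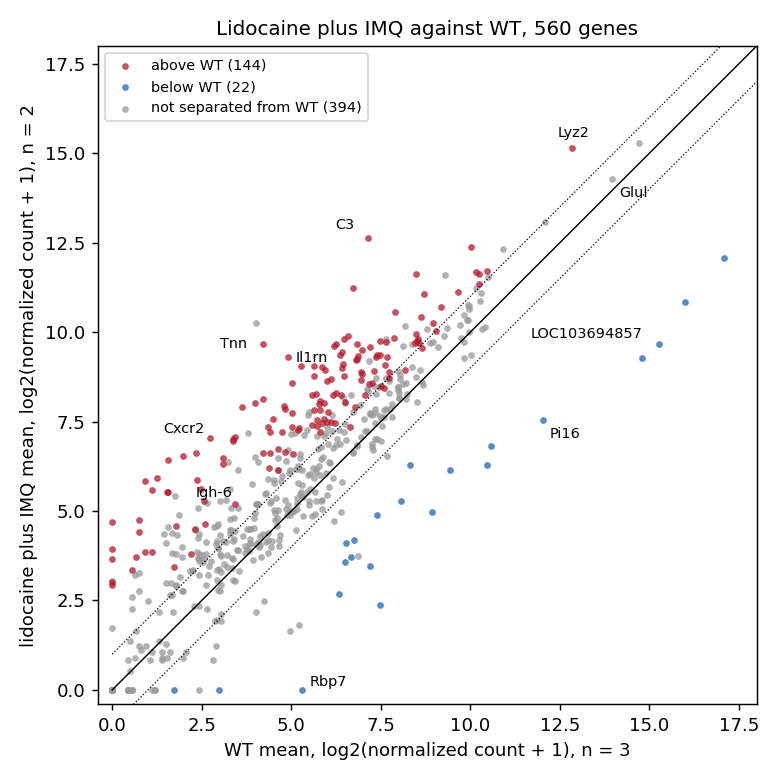
Mean level in lidocaine plus IMQ ganglia (vertical axis, n = 2) against mean level in WT ganglia (horizontal axis, n = 3), both as log2(normalized count + 1), for 560 genes. The solid line marks equal levels and the dotted lines a difference of 1; the 144 genes above WT are red, the 22 below are blue, and the 394 not separated are grey.

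Both lidocaine values exceeded all 3 WT values for 295 genes (52.7%) and lay under all 3 for 38 genes (6.79%). The groups overlapped for the other 227. With 5 libraries only 10 splits exist, so an exact permutation test cannot reach 0.05 and the calls rest on limma's shared estimate of spread. The count of calls depended strongly on single libraries. It was 26 above and 1 below without lidocaine 1, 14 and 2 without lidocaine 2, and 54 and 3 without WT 2, against 148 and 28 without WT 1 and 106 and 16 without WT 3. In the 2 fits that leave 1 lidocaine library, that library is assumed to vary like the WT group. Genes called above WT in all 5 such fits were Il1rn, Fcgr2b, Selp, Clec7a, Lilrb3l, Nfam1, Stra6, Ly49si2, Ly49i2 and AABR07025023.1, and the unnamed AABR07065531.5 was called below in all 5. Ly49si2 and Ly49i2 had no reads in any WT library and few in lidocaine libraries, so their WT values show no spread.

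**Figure D2:**
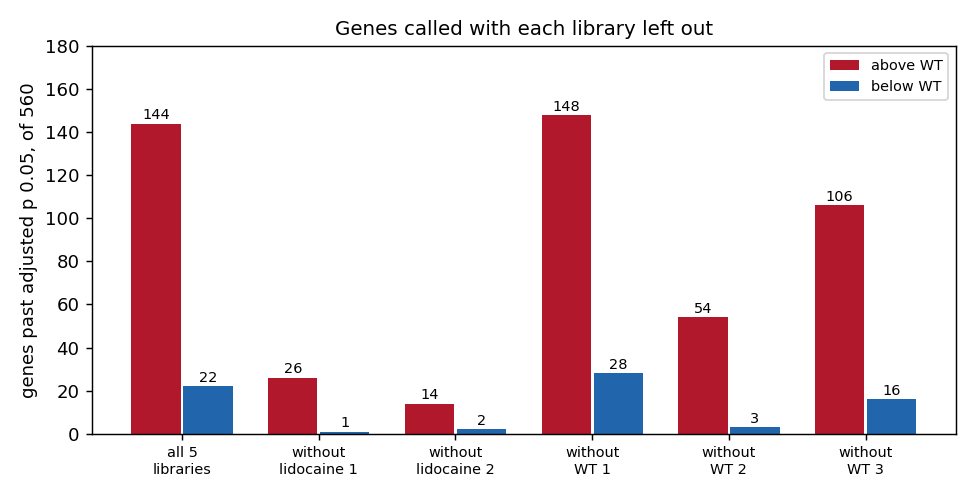
Number of genes of 560 called above WT (red) and below WT (blue) at an adjusted p of 0.05, with all 5 libraries and with each library left out in turn. Counts fall to 26, 14 and 54 genes above WT without lidocaine 1, lidocaine 2 and WT 2.

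Macrophage and monocyte genes lay above WT under lidocaine. Their place under the IMQ mean is fixed by the selection. All 19 had both lidocaine values above all WT values (beside 52.7% of the 560), and 14 of 19 were above WT by the test (73.7%, beside 25.7% of all 560). The median difference was 2.35, beside 3.79 for IMQ against WT. For 17 of the 19 the mean normalized count over the 5 libraries was at least 50. Of all 283 such genes 39.6% were above WT by the test, and 189 had both lidocaine values above all WT values. Fcgr2b (ENSRNOG00000046452), the inhibitory receptor for immunoglobulin G, had levels of 9.86 and 9.73 in lidocaine ganglia, against 6.43, 6.56 and 6.41 in WT ganglia. The groups lay far apart with little spread in either, a difference of 3.33 (SE 0.14, 95% interval 2.95 to 3.71, limma adjusted p = 0.00175), or 10.1-fold. Clec7a (ENSRNOG00000054251), the receptor dectin-1 for fungal glucans, had 9.32 and 8.91 in lidocaine ganglia, against 6.61, 6.38 and 6.36 in WT ganglia, a difference of 2.67 (SE 0.20, limma adjusted p = 0.00528). Lyz2 (ENSRNOG00000005825), lysozyme of myeloid cells and one of the most abundant transcripts here, had 15.10 and 15.19 in lidocaine ganglia, against 12.74, 13.06 and 12.70 in WT ganglia. Its difference of 2.31 (SE 0.33, limma adjusted p = 0.0135) was 4.97-fold, again with no overlap.

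The size of the remaining excess differed among macrophage genes. Clec4e, which senses mycobacterial glycolipid and dying cells, was 4.57 above WT (SE 0.54, limma adjusted p = 0.0094), and the low-affinity immunoglobulin receptor Fcgr3a was 3.77 above (SE 0.54, limma adjusted p = 0.0135). Ms4a6a, a membrane protein of myeloid cells, was 3.42 above (SE 0.32, limma adjusted p = 0.0079). The endotoxin co-receptor Cd14 and the hemoglobin scavenger receptor Cd163 were 1.95 and 1.64 above (SE 0.22 and 0.25). The smallest differences of the list were those of Clec10a and Mrc1. Mrc1, the mannose receptor, had 10.37 and 10.59 in lidocaine ganglia, against 9.81, 9.66 and 10.02 in WT ganglia, and its difference of 0.65 (SE 0.18, limma adjusted p = 0.0587) did not pass. Clec10a, a lectin for galactose, differed by 0.63 (SE 0.35) and the C1q chains C1qa and C1qb, which start the classical complement pathway, by 1.05 and 1.06 (SE 0.44 and 0.42), none of these 3 past the test, while C1qc passed at 1.51 (SE 0.35, limma adjusted p = 0.0392). Of the 14 calls in this list, 4 were kept without lidocaine 1, 2 without lidocaine 2, 8 without WT 2, 13 without WT 1 and 11 without WT 3. Fc receptor and membrane-spanning 4-domain genes have near-identical copies, and reads may be split among them.

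**Figure D3:**
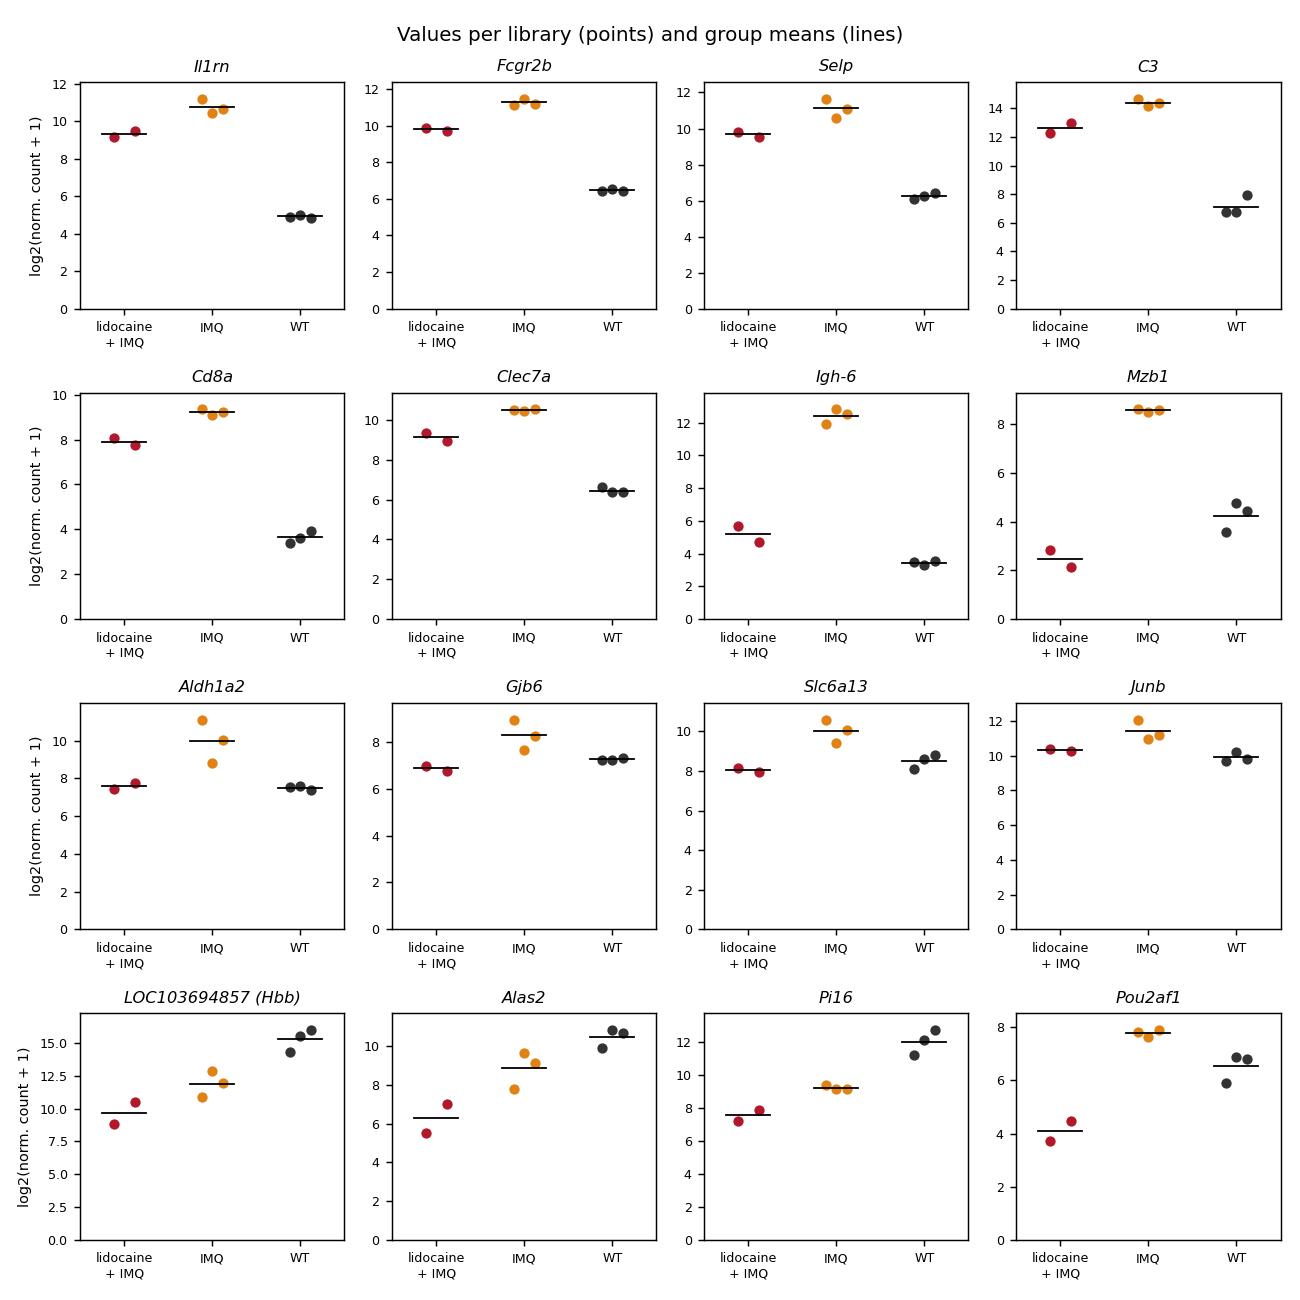
Level in each library (points) and group mean (lines) as log2(normalized count + 1) for members named in the text, with lidocaine plus IMQ left (n = 2), IMQ in the middle (n = 3) and WT right (n = 3). Il1rn, Fcgr2b, Selp, C3, Cd8a and Clec7a sit between IMQ and WT, Aldh1a2 and Junb near WT, and the hemoglobin gene LOC103694857, Alas2 and Pi16 below both. The selection places the lidocaine mean of every gene at least 1.00 from the IMQ mean.

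Genes of leukocyte adhesion and migration were above WT more often than any other list of at least 5 genes, at 13 of 15 (86.7%, beside 25.7% of all 560, median difference 1.97). All 15 had a mean normalized count of at least 50 over the 5 libraries, and of all such genes 39.6% were above WT. Selp (ENSRNOG00000002794), P-selectin of activated endothelium and platelets, had 9.80 and 9.54 in lidocaine ganglia, against 6.09, 6.27 and 6.41 in WT ganglia. The difference was 3.42 (SE 0.18, limma adjusted p = 0.0022), 10.7-fold, with the groups apart. Sele, E-selectin of inflamed endothelium, was 2.45 above WT (SE 0.31, limma adjusted p = 0.0107), and the endothelial ligand Icam1 was 1.13 above (SE 0.15, limma adjusted p = 0.0111). On the leukocyte side, the integrin chains Itgad, Itgal and Itgb2 were 3.03, 3.00 and 1.93 above (SE 0.47, 0.59 and 0.18), and Ptprc, the common leukocyte antigen CD45, was 1.97 above (SE 0.36). Vcam1, the endothelial ligand of leukocyte integrins, had the smallest called difference of the list at 0.91 (SE 0.23, limma adjusted p = 0.0498). Jaml, a junctional protein of leukocytes, was at 6.71 and 6.60 in lidocaine ganglia, against 6.47, 6.63 and 7.07 in WT ganglia, with a 90% interval inside the bound of 1. Itgb7, the gut-homing integrin chain, differed by 0.59 (SE 0.42) and did not pass. Calls in this list numbered 2 without lidocaine 1, 1 without lidocaine 2 and 5 without WT 2.

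Of 8 genes of the psoriasis cytokine list 3 were above WT (37.5%, beside 25.7% of all 560), all of the interleukin 1 family. Il1rn (ENSRNOG00000005871), the natural antagonist of interleukin 1 and a member of the injury response list too, had 9.14 and 9.49 in lidocaine ganglia, against 4.90, 5.0 and 4.84 in WT ganglia. The groups were 4.40 apart (SE 0.20, 95% interval 3.86 to 4.94, limma adjusted p = 0.00175), a 21.1-fold difference. Il1b, the agonist, had 8.76 and 8.43 in lidocaine ganglia, against 5.27, 5.74 and 4.09 in WT ganglia, 3.56 apart (SE 0.56, limma adjusted p = 0.0157). Il1a was 3.67 above WT (SE 0.83, limma adjusted p = 0.0374), with 2 of its 3 WT libraries at 0. Il1r2, the decoy receptor of interleukin 1, and Osm, oncostatin M, had both lidocaine values above all WT values but did not pass, at 2.08 and 2.32 (SE 0.66 and 0.83, limma adjusted p = 0.0837 and 0.107). Il23a, the interleukin 23 subunit that drives interleukin 17 cells, had 3.86 and 5.06 in lidocaine ganglia, against 5.04, 4.83 and 5.54 in WT ganglia, and Il24, a cytokine of the interleukin 10 family, also overlapped. Tnf was at 0 in lidocaine 1 and in all WT libraries and at 3.46 in lidocaine 2, and did not pass. The entry LOC103694380, described as tumor necrosis factor-like, may share its reads. It had 3.27 and 3.60 in lidocaine ganglia, against 1.66, 1.31 and 2.19 in WT ganglia, and was above WT by 1.71 (SE 0.36, limma adjusted p = 0.0308). The list median was 2.20, and of the 3 calls 1 was kept without lidocaine 1, 1 without lidocaine 2, and 2 without WT 1 or without WT 3.

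Of 13 genes of cytokine receptors and signalling 6 were above WT (46.2%, beside 25.7% of all 560, median 1.48), 7 were not separated and none was below. Csf2rb, the receptor chain common to the receptors of interleukin 3, interleukin 5 and GM-CSF, had 8.83 and 9.27 in lidocaine ganglia, against 5.79, 5.82 and 5.30 in WT ganglia, 3.42 apart (SE 0.27, limma adjusted p = 0.00563). Socs3, a feedback inhibitor of STAT3 signalling, was 3.13 above WT (SE 0.45), the tumor necrosis factor receptor Tnfrsf1b 2.29 above (SE 0.24) and the metalloreductase Steap4 1.48 above (SE 0.29). Il6r, the interleukin 6 receptor, had 8.93 and 8.96 in lidocaine ganglia, against 8.16, 8.77 and 8.82 in WT ganglia, inside the bound of 1. Nfkbiz, an inhibitor family member needed for interleukin 17 target genes in skin, differed by 0.46 (SE 0.40) and did not pass. The transcription factors Irf8 of myeloid cells and Irf1 of the interferon response were the only 2 listed interferon genes, and both were above WT, by 2.08 and 1.46 (SE 0.18 and 0.16). Without lidocaine 1 or lidocaine 2, 1 and 0 of the 6 receptor and signalling calls and none of the 2 interferon calls were kept, and 2 of the 6 were kept without WT 2.

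Among chemokines and their receptors 6 of 17 genes were above WT (35.3%, beside 25.7% of all 560, median 2.05). Both lidocaine values exceeded all WT values for 14 (beside 52.7% of all 560). Cxcr2 (ENSRNOG00000014269), the receptor that brings neutrophils to CXC chemokines, had 6.88 and 7.20 in lidocaine ganglia, against 2.91, 3.07 and 2.19 in WT ganglia, 4.32 apart (SE 0.44, limma adjusted p = 0.00806). Of its ligands, Cxcl2 was 4.46 above WT (SE 0.76, limma adjusted p = 0.019) and Cxcl1 3.63 above (SE 0.53, limma adjusted p = 0.0135). Cxcl1 was uneven in the lidocaine group, with 6.43 and 7.72, against 3.38, 3.76 and 3.17 in WT ganglia. The T cell attractant Cxcl11, a target of interferon gamma, was 3.41 above (SE 0.62) and the receptor Cx3cr1 was 3.10 above (SE 0.74). Ccl5, Ccrl2, Cx3cl1 and the receptor Ccr1 did not pass, with differences of 1.18, 0.50, 0.55 and 1.18 (SE 0.61, 0.35, 0.23 and 0.33). Ccr8 was at 0 in every lidocaine and WT library and Xcl1 in all but 1 WT library. None of the 6 calls was kept without lidocaine 1 or without lidocaine 2, 1 was kept without WT 2 and 5 without WT 3.

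Promoter sequence was compared for the members that moved together, using the RefSeq table of the GRCr8 assembly (250 bases before to 50 bases after each gene start), in which 358 of the 560 genes were found by symbol or gene ID. The letters GGGA, any base and TTTCC in a row, a form of the NF-kB motif, stood on either strand in 5 of 97 promoters of genes above WT (5.15%), in 2 of 249 of genes not separated (0.803%) and in 121 of all 33469 promoters (0.362%). They stood in 1.96% of all 358 promoters and in 0 of 12 of genes below WT. The 5 were Cxcl1, Slamf8, Steap4, Tnn and Upp1, and the 2 were Nfkbiz and Tnfaip3. The letters GAAA, any 2 bases and GAAA in a row, a form of the interferon-stimulated response element, stood in 10 of 97 promoters above WT (10.3%), in 8 of 249 not separated (3.21%) and in 3.92% of all promoters. They stood in 5.31% of all 358 promoters and in 1 of 12 of genes below WT (8.33%). The CCAAT box stood in 38.1% of promoters above WT and 37.5% of all, and the letters TATAAA in 21.6% of promoters above WT, 18.5% of those not separated, 19.6% of all 358 and 14.2% of all promoters in the table. A match describes the letters only and is not a binding site. The 200 bases before the gene start are shown for 4 genes above WT and 1 hemoglobin gene below WT, 5′ to 3′ along the gene, with the matched letters in capitals. They are the NF-kB letters in Cxcl1 (chr14:17479322-17479521, minus strand, first capital 84 bases before the start) and on the opposite strand in Steap4 (chr4:27054770-27054969, minus strand, 178 bases before). They are the interferon letters in Fcgr3a (chr13:85782436-85782635, plus strand, 105 bases before) and Ctss (chr2:185775196-185775395, plus strand, 36 bases before), and TATAAA in Hba-a2 (chr10:15829139-15829338, minus strand, 28 bases before).
Cxcl1: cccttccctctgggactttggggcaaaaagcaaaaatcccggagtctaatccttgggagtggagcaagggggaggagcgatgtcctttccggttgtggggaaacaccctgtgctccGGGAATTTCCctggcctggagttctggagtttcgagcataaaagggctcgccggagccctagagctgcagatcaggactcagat
Steap4: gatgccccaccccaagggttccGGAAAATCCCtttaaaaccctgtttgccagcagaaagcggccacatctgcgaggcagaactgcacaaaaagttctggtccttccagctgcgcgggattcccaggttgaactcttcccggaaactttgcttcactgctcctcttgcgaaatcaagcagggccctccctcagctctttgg
Fcgr3a: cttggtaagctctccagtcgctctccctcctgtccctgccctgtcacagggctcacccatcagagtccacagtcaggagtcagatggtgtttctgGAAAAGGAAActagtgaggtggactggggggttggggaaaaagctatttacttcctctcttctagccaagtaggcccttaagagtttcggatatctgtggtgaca
Ctss: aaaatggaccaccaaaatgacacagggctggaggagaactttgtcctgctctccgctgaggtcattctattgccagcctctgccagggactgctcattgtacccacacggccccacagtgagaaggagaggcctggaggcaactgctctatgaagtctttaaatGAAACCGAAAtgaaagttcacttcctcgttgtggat
Hba-a2: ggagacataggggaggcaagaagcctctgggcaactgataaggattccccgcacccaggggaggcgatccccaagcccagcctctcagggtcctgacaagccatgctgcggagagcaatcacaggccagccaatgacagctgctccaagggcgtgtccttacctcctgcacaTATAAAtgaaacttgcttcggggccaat

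Of 19 T cell and cytotoxic lymphocyte genes 7 were above WT (36.8%, beside 25.7% of all 560, median 1.36), 12 were not separated and none was below. Cd8a (ENSRNOG00000007178), the co-receptor of cytotoxic T cells, had 8.07 and 7.74 in lidocaine ganglia, against 3.38, 3.60 and 3.93 in WT ganglia. Both lidocaine values were far above WT, by 4.27 (SE 0.32, limma adjusted p = 0.00528) or 19.3-fold. Cd8b was 3.98 above (SE 0.89), the pore-forming protein Prf1 3.14 above (SE 0.56), the granule protease Gzmk 3.07 above (SE 0.73) and the natural killer receptor Ncr1 2.81 above (SE 0.61), all past the test but with fewer reads. The co-stimulatory receptor Cd27 and the interleukin 2 receptor chain Il2rb were also above WT, by 1.59 and 1.82 (SE 0.36 and 0.43). Nkg7, a protein of cytotoxic granules, did not pass at 1.18 (SE 0.60, limma adjusted p = 0.208). Cd2, an adhesion receptor of T and natural killer cells, had 5.10 and 4.91 in lidocaine ganglia, against 5.45, 4.49 and 5.30 in WT ganglia, a difference inside the bound of 1. The T cell receptor chains Cd3g and Cd3e differed by -0.28 and 1.76 (SE 0.57 and 0.59), and Cd3d was at 0 and 1.69 in lidocaine ganglia, against 2.42, 2.63 and 3.44 in WT ganglia, with none of the 3 past the test. Foxp3 of regulatory T cells and the kinase Zap70 overlapped between the groups. Of the 7 calls, none was kept without lidocaine 1 or lidocaine 2, 2 without WT 2, 3 without WT 3 and 4 without WT 1. The natural killer receptors Ly49si2 and Ly49i2 were at 0 in all WT libraries and at 3.74 and 3.60, and 3.44 and 2.45, in lidocaine ganglia. With 3 reads in each library as the floor, these levels are at least 4.98-fold and 3.04-fold higher, and both belong to a family of near-identical copies.

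Of 9 B cell and plasma cell genes 2 were above WT (22.2%, beside 25.7% of all 560), 2 below (beside 3.93% of all 560) and 5 not separated. Differences ran from -2.51 to 2.57, with 4 genes over 0 and 4 under it. The list median of 0.00 is the value of Ighg, which was at 0 in every lidocaine and WT library, and so says little of the others. Igh-6 (ENSRNOG00000048402), which encodes the mu heavy chain, had 5.65 and 4.74 in lidocaine ganglia, against a mean of 12.41 in IMQ ganglia and 3.48, 3.30 and 3.55 in WT ganglia. It remained above WT by 1.75 (SE 0.44, limma adjusted p = 0.0482), a call lost with any 1 library left out. Cd38, an ectoenzyme of plasma cells and other leukocytes, had 8.90 and 9.09 in lidocaine ganglia, against 7.12, 6.78 and 5.36 in WT ganglia, and was above by 2.57 (SE 0.59, limma adjusted p = 0.0384), a call kept only without WT 1 or WT 3. The B cell lectin Cd22 did not pass at 1.85 (SE 0.54, limma adjusted p = 0.067). Mzb1, a chaperone of antibody-secreting cells, had 2.84 and 2.12 in lidocaine ganglia, against 8.56 on average in IMQ ganglia and 3.57, 4.75 and 4.43 in WT ganglia. Both lidocaine values were the lowest of the 5, yet the difference of -1.77 (SE 0.54, limma adjusted p = 0.0755) did not pass. Jchain, which joins immunoglobulin M and A subunits, overlapped with WT (0.60, SE 0.59). Pou2af1, a co-activator of B cell octamer factors, had 3.74 and 4.47 in lidocaine ganglia, against 7.79 on average in IMQ ganglia and 5.91, 6.88 and 6.80 in WT ganglia. It was thus lower than in either other group, with a difference from WT of -2.43 (SE 0.47, limma adjusted p = 0.0251). The B cell receptor subunit Cd79a fell below WT by 2.51 (SE 0.53, limma adjusted p = 0.0308), and it was among the genes lower in both steps. Both calls were lost without lidocaine 1, lidocaine 2, WT 2 or WT 3.

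Of 13 neutrophil and marrow granulocyte genes 4 were above WT (30.8%, beside 25.7% of all 560) and the median difference was 0.18. Itgb2, Cxcr2 and Mcemp1 were among those above, by 1.93, 4.32 and 2.01. The neutrophil surface protein Cd177 had 0.00 and 3.31 in lidocaine ganglia, against 4.02, 5.35 and 5.48 in WT ganglia, and did not pass at -3.30 (SE 1.18, limma adjusted p = 0.107). The receptors Trem1 and Fpr2 did not pass either, at 1.86 and -0.40 (SE 0.65 and 0.51). S100a9, a subunit of calprotectin, had 10.14 and 10.02 in lidocaine ganglia, against 9.45, 10.68 and 10.82 in WT ganglia, and the proteases Mmp8, Elane and Prtn3 differed by -0.21, 0.07 and 0.10 (SE 0.33, 0.90 and 0.58). Over the 13 genes WT 3 exceeded WT 1 by a median of 1.02, so the WT libraries themselves were uneven here, and the part of that in the result was not tested. Calls in this list numbered 1 without lidocaine 1, 0 without lidocaine 2 and 2 without WT 2.

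Complement C3 (ENSRNOG00000046834), the central component of the cascade, had the largest called excess of all 560 genes. Its levels were 12.28 and 12.96 in lidocaine ganglia, against 14.40 on average in IMQ ganglia and 6.75, 6.74 and 7.91 in WT ganglia. The lidocaine level was 5.49 above WT (SE 0.48, 95% interval 4.19 to 6.78, limma adjusted p = 0.00779), or 44.9-fold, and the call was lost only without lidocaine 2 (limma adjusted p = 0.0625). The copper carrier ceruloplasmin (Cp) and the terminal component C6 were 2.36 and 2.49 above (SE 0.24 and 0.32). The complement and acute phase list had 40% of its genes above WT, beside 25.7% of all 560. Slpi, a protease inhibitor of secretions, had the largest difference of any gene, 6.24, but its WT values of 0, 6.69 and 5.39 left a 95% interval of 0.33 to 12.16 and it did not pass (limma adjusted p = 0.105). Of these 10 genes 4 were above WT (median 1.92), with 1, 0 and 2 of the calls kept without lidocaine 1, lidocaine 2 and WT 2.

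Of 16 antigen presentation genes 5 were above WT (31.3%, beside 25.7% of all 560), with a median difference of 0.98, beside 0.87 over all 560. RT1-Da (ENSRNOG00000032844), a class II chain, had 11.61 and 11.06 in lidocaine ganglia, against 10.04, 10.35 and 10.31 in WT ganglia, 1.10 apart (SE 0.24, limma adjusted p = 0.0337). The class II chain RT1-Db1 had 10.04 and 9.41 in lidocaine ganglia, against 9.15, 9.97 and 10.36 in WT ganglia, and so overlapped. The invariant chain Cd74 differed by 1.00 (SE 0.46, limma adjusted p = 0.179) and the class II regulator Ciita by 1.10 (SE 0.31, limma adjusted p = 0.0622), neither past the test. The lysosomal protease Ctss, which trims the invariant chain, was 1.51 above WT (SE 0.22, limma adjusted p = 0.0135). No call in this list was kept without lidocaine 1, lidocaine 2 or WT 2, and RT1 genes have near-identical copies. Of 5 Toll-like receptor and endotoxin sensing genes, Cd14 and Tlr6 were above WT (1.95 and 1.39), and Tlr9, Tlr10 and Tlr12 did not pass at 3.68, 3.38 and 1.49 (SE 1.14, 0.94 and 1.13). These 2 calls became 1 without lidocaine 1, 0 without lidocaine 2, 1 without WT 2 and 4 without WT 1.

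**Figure D4:**
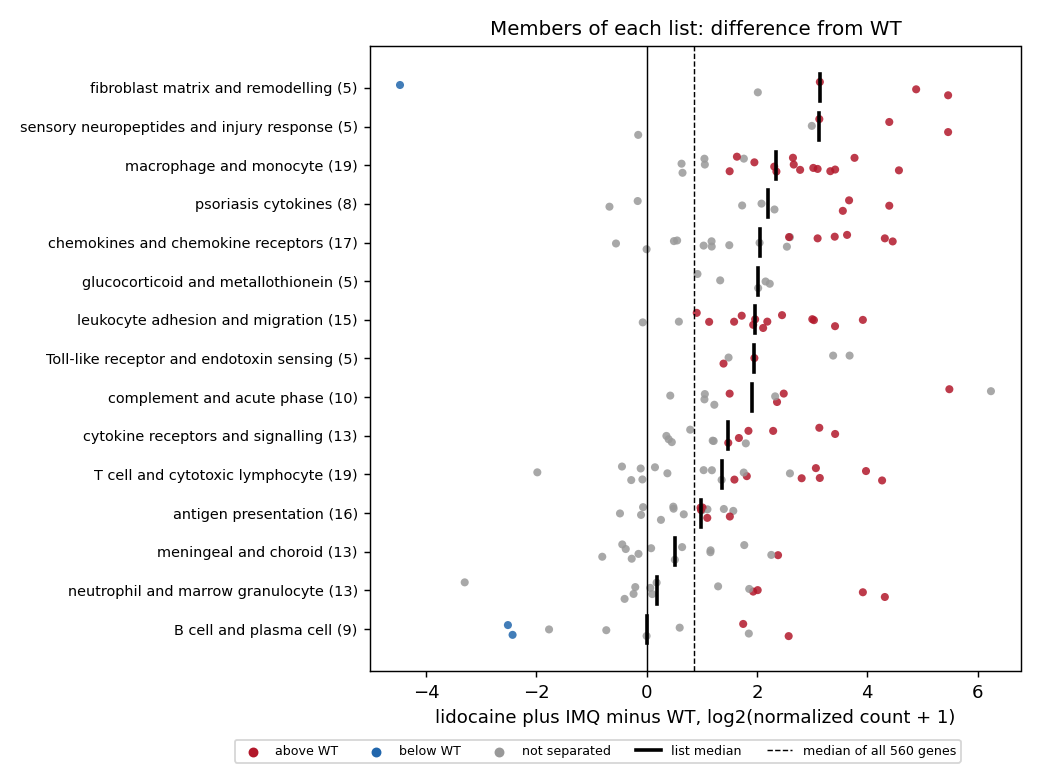
Difference of lidocaine plus IMQ from WT on the log2(normalized count + 1) scale for each member (points) of the lists with at least 5 of the genes, number of genes in brackets. The black bar is the list median and the dashed line the median of 0.87 over all 560 genes; macrophage genes lie wholly right of 0, while B cell genes lie on both sides of it.

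Of 13 meningeal and choroid genes 1 was above WT (7.69%, beside 25.7% of all 560) and 3 were inside the bound of 1 (beside 10% of all 560). Aldh1a2 (ENSRNOG00000055049), the retinoic acid synthase of the leptomeninges, had 7.44 and 7.75 in lidocaine ganglia, against 8.84 to 11.10 in IMQ ganglia and 7.53, 7.62 and 7.38 in WT ganglia. The lidocaine and WT values interleaved, with a difference of 0.08 (90% interval -0.29 to 0.45). Gjb6, the gap junction protein connexin 30, had 6.99 and 6.77 in lidocaine ganglia, against 7.23, 7.23 and 7.31 in WT ganglia, so that both lidocaine values lay just under WT (-0.38, 90% interval -0.71 to -0.04). Slc6a13, a transporter of GABA and taurine, had 8.18 and 7.94 in lidocaine ganglia, against 8.10, 8.59 and 8.82 in WT ganglia (-0.44, 90% interval -0.99 to 0.11). The gene called above was Stra6 (ENSRNOG00000008312), the cell surface receptor for retinol carried by its binding protein, with 9.68 and 9.47 in lidocaine ganglia, against 7.07, 7.14 and 7.37 in WT ganglia. It was 2.38 above WT (SE 0.17, limma adjusted p = 0.00496) and kept that call with any library left out. Another 4 genes lay more than 1 above WT without passing: the sulfate transporter Slc26a2 at 2.26 (SE 0.97), the transcription factor Zic2 at 1.77 (SE 0.52), and the transporters Slc22a2 and Slc6a12 at 1.16 each (SE 0.56 and 0.83). The list median was 0.51, beside 2.29 for IMQ against WT, and without WT 1 the genes above WT numbered 3.

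Of 3 glial genes 1 was above WT (33.3%, beside 25.7% of all 560). This was Gfap, the intermediate filament of reactive glia, with 11.38 and 10.76 in lidocaine ganglia, against 8.37, 8.97 and 8.76 in WT ganglia. The groups were 2.38 apart (SE 0.29, limma adjusted p = 0.0106). Gfap was not among the genes called in all 5 fits with a library left out. Glul, the glutamine synthetase of satellite glia, had 14.29 and 14.27 in lidocaine ganglia, against 13.85 to 13.99 in the lower 2 WT libraries and a mean of 13.95 over all 3. Both lidocaine values of Glul lay above all WT values, but its difference of 0.33 (SE 0.34) did not pass. Mlc1, a membrane protein of astrocyte end feet, overlapped. The potassium channel Kcnj16, which forms heteromers with the satellite glial channel subunit Kcnj10, was 3.11 above WT (SE 0.32, limma adjusted p = 0.00806), a gene chosen after its values were seen. Among neuropeptide and injury genes Vip, vasoactive intestinal peptide, had 4.87 and 4.24 in lidocaine ganglia, against 0.00, 2.23 and 2.45 in WT ganglia, without overlap but not past the test (2.99, SE 0.90, limma adjusted p = 0.0711). Crh, corticotropin-releasing hormone, had been lower in IMQ ganglia (7.31 on average) and overlapped with WT under lidocaine, at 8.09 and 8.97 in lidocaine ganglia, against 8.99, 7.68 and 9.38 in WT ganglia. From 53 symbols of nociceptor, pain and itch receptors, Npr1 alone was among the 560 genes, inside the bound of 1 (7.85 and 7.84 in lidocaine ganglia, against 7.14, 7.90 and 8.20 in WT ganglia). Npr1 is the receptor of atrial and brain natriuretic peptides.

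The 56 genes within the bound of 1 included 14 at 0 in every lidocaine and WT library, so that they were detected only in IMQ ganglia. Among these were Cd40lg, the CD40 ligand of helper T cells, the immunoglobulin heavy chain Ighg and the receptors Ccr8 and Klrc1. Another 30 had a mean normalized count of at least 50 over the 5 libraries. The narrowest intervals among them belonged to Pim1, Gjb6, Spn, Aldh1a2, Arhgap9, Mxd1, Junb, Osr1, Pawr and LOC100910163. The kinase Pim1, a target of cytokine signals, had 7.80 and 7.66 in lidocaine ganglia, against 7.14, 7.28 and 7.19 in WT ganglia. It lay above WT in every library and yet by at most 0.83 at the upper 90% limit (difference 0.52). Sialophorin (Spn), the large mucin CD43 of leukocytes, had 7.11 and 7.37 in lidocaine ganglia, against 6.97, 7.14 and 7.08 in WT ganglia (0.18, 90% interval -0.18 to 0.54). The AP-1 factor Junb had 10.38 and 10.29 in lidocaine ganglia, against 9.71, 10.19 and 9.80 in WT ganglia (0.43, 90% interval 0.01 to 0.85). Osr1, a transcription factor of connective tissue, differed by 0.11 (90% interval -0.33 to 0.56). The number within the bound was 32, 34 and 36 without lidocaine 1, lidocaine 2 and WT 2.

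The reverse path, lower in IMQ ganglia and higher again under lidocaine, held 23 genes, most with few reads. Of these, 22 lay nearer WT than IMQ. The selection fixes part of that count, since the median IMQ minus WT difference was -1.94 and each gene rose by at least 1.00 under lidocaine. In limma's test 0 were above WT (1 at an unadjusted p under 0.05), 4 were inside the bound of 1 and the median difference was 0.02. Among the 4 were Olr34, AC121204.1 and Trpc7, the last a calcium-permeable channel. Trpc7 had 4.09 and 4.32 in lidocaine ganglia, against 2.38 on average in IMQ ganglia and 4.14, 4.17 and 4.75 in WT ganglia, so the lidocaine and WT values overlapped (-0.15, 90% interval -0.97 to 0.67). The unnamed Rn60_8_0597.2 was the exception, with 6.18 and 6.40 in lidocaine ganglia, against 7.71, 8.07 and 9.20 in WT ganglia (-2.04, SE 0.50, limma adjusted p = 0.0451).

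**Figure D5:**
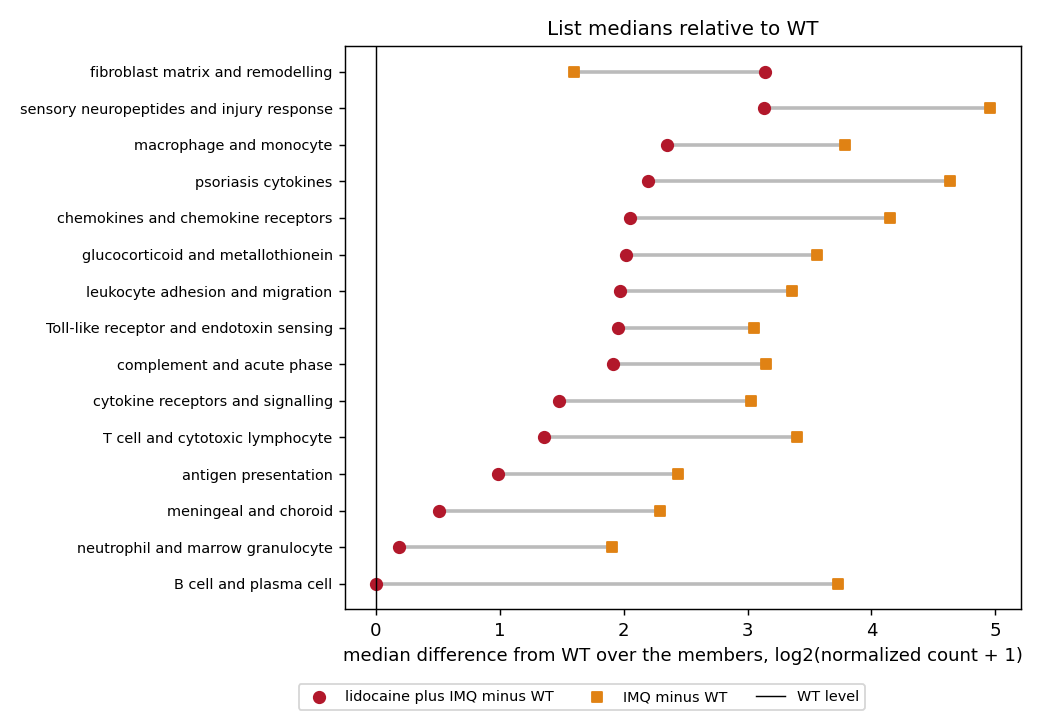
Median difference from WT over the members of each list, for lidocaine plus IMQ (red circles) and for IMQ (orange squares), on the log2(normalized count + 1) scale; the line at 0 is the WT level and both medians use the same 3 WT libraries. The macrophage list lies at 2.35 under lidocaine and 3.79 under IMQ; the 0.00 of the B cell and plasma cell list is the value of Ighg, at 0 in all lidocaine and WT libraries.

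The 3 genes higher in both steps, Tnn, Mmp3 and Postn, belong to the matrix list, and their place above WT is fixed by the tables. Periostin (Postn, ENSRNOG00000012660), a matrix protein of healing connective tissue, had 10.84 and 12.43 in lidocaine ganglia, against 10.09 on average in IMQ ganglia and 8.59, 8.55 and 8.34 in WT ganglia. Its difference was 3.14 (SE 0.51, limma adjusted p = 0.0168). Tenascin N (Tnn) was far apart in the 2 lidocaine libraries, with 7.67 and 11.66, against 3.88, 3.68 and 5.05 in WT ganglia. The difference of 5.47 (SE 1.33, limma adjusted p = 0.0428) became 3.47 without lidocaine 2 and 7.46 without lidocaine 1, and of the 5 fits with a library left out only the fit without lidocaine 1 kept the call. Mmp3, stromelysin-1, had 5.91 and 6.96 in lidocaine ganglia, against 0.00, 1.98 and 2.67 in WT ganglia (4.89, SE 0.97, limma adjusted p = 0.0261). All 3 were higher in lidocaine 2 than in lidocaine 1.

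Red cell genes made up 7 of the 22 genes below WT, a place fixed by their being lower in both tables. The 4 hemoglobin genes and the 3 other erythroid genes were all below. LOC103694857 (ENSRNOG00000061299), hemoglobin beta-2, had 8.82 and 10.53 in lidocaine ganglia, against 11.88 on average in IMQ ganglia and 14.29, 15.55 and 15.97 in WT ganglia. Its difference of -5.59 (SE 0.79, 95% interval -7.72 to -3.47, limma adjusted p = 0.0135) is the lowest of all 560 genes and left 2.07% of the WT level. The 2 entries named Hba-a2, the alpha chain, differed by -5.15 and -4.99 (SE 0.75 and 0.87). Alas2, the first enzyme of heme synthesis in red cell precursors, had 5.54 and 7.04 in lidocaine ganglia, against 9.90, 10.83 and 10.68 in WT ganglia (-4.18, SE 0.57, limma adjusted p = 0.0123). The alpha hemoglobin chaperone Ahsp and the blood group protein Rhd differed by -3.94 and -3.75 (SE 0.49 and 0.54). None of these 7 calls was kept without lidocaine 1, lidocaine 2 or WT 2, and all 7 were kept without WT 1 or WT 3. Hemoglobin copies are near-identical and reads may be split among them.

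Single genes of other cell types and tissues lay below WT as well, all lower in both tables. They do not speak for their lists. Of 5 fibroblast matrix genes Pi16 alone was below WT and 3 were above. The other keratinocyte gene, Sbsn, and the other adipocyte gene, Cfd, differed by 0.13 and 0.43, neither past the test. Cma1 and Myl1 were the only genes of their lists among the 560. Pi16 (ENSRNOG00000000525), a marker of fibroblasts in connective tissue sheaths, had 7.23 and 7.88 in lidocaine ganglia, against 9.24 on average in IMQ ganglia and 11.23, 12.12 and 12.72 in WT ganglia. It was at 4.51% of the WT level (-4.47, SE 0.52, limma adjusted p = 0.0094), a call lost without lidocaine 1 or lidocaine 2. Rbp7, a retinoid carrier of fat and its vessels, was at 0 in both lidocaine libraries and at 3.95, 5.80 and 6.16 in WT ganglia, at least 13.2-fold lower with the same floor of 3 reads. The mast cell protease Cma1 differed by -3.64 (SE 0.51), the fast muscle chain Myl1 by -5.12 (SE 0.98), the epithelial keratin Krt19 by -2.77 (SE 0.59) and the leukocyte antigen Cd52 by -2.95 (SE 0.65). Over the 20 genes lower in both steps lidocaine 2 exceeded lidocaine 1 by a median of 0.99 and WT 3 exceeded WT 1 by 1.37, beside medians of 0.19 and 0.14 over all 560 genes. Library differences of that size moved with these genes within each group, and their part in the result was not tested. The unnamed AABR07065531.5 did not share that spread, with 6.74 and 6.88 in lidocaine ganglia, against 10.45, 10.77 and 10.49 in WT ganglia (-3.76, SE 0.16, limma adjusted p = 0.00175).

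Metallothionein and glucocorticoid-responsive genes lay above WT without passing. All 5 (Mt1m, Mt1, Mt2A, Zbtb16 and Hif3a) had both lidocaine values above all WT values, as had 52.7% of all 560 genes. The median difference was 2.02, and none of the 5 genes passed with all 5 libraries (limma adjusted p = 0.0532 to 0.0863). The metal-binding Mt2A had 9.03 and 9.34 in lidocaine ganglia, against 5.98, 7.74 and 7.77 in WT ganglia, where WT 1 stood apart. All 5 had an unadjusted p under 0.05, and limma-voom called 4 of them. Called genes numbered 3 of 5 without WT 1 and 5 of 5 in a fit of all 8 libraries that also uses the spread of the IMQ group.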

How the data were processed

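RNA was sequenced from rat dorsal root ganglia in 8 libraries, of which 5 (2 lidocaine plus IMQ, 3 WT) enter the comparison. Per the labels' protocols, ganglia were frozen, RNA was extracted with TRIzol and libraries were made for Illumina sequencing. STAR 2.5.3a, DESeq2 and bcl2fastq were used per the submitters' processing notes, which state no roles. Not given in the sources used here are build, annotation, counting and strand, and reads of overlapping or antisense genes may be mixed. The authors deposited log2 values per library, read from the values as log2(normalized count + 1): all values checked were whole multiples of what 1 read is worth (100%, tolerance 0.02 reads). IMQ values of shared genes differed between tables by at most 4.98e-09, so all libraries share 1 normalization. The tables hold selected genes, and their totals give no sequencing depth.

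The 2 groups were fitted with limma 3.58.1 (R 4.3.3) with a mean-variance trend over all 560 genes, without a filter. The 90% interval between -1 and 1 equals 2 one-sided tests at 0.05, unadjusted. The script was tested on simulated data. No library repeated another: within groups the median chi-square was 3.79 to 19.8, against 0.455 from counting alone.

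Named genes are the 10 largest called increases and decreases (mean of 50 or more), the 4 lowest adjusted p-values in either direction, the 10 narrowest bounded intervals, and up to 8 members per list; others are exceptions chosen after their values were seen. Members and lists were chosen with earlier results of these data known. Alternatives were pseudocounts of 0.1 and 10, a mean of at least 50, an adjusted p under 0.01, a replicate block, all 8 libraries, no trend, limma-voom on recovered reads, and each library left out. Some genes are not reported here.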

Additional observations from a re-analysis of the deposited data

How the results depend on the processing

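The 144 genes above WT, 22 below and 56 within the bound of 1 depended on single libraries and on other settings. Leaving out each library in turn gave 14 to 148 above, 1 to 28 below and 32 to 73 within. At an adjusted p under 0.01, 40 genes were above and 3 below. With the replicate number as a block, 0 were above, 0 below and 50 within. The numbers were not taken to pair the samples (correlations of deviations -0.04 and 0.04 for numbers 1 and 2). With 2 lidocaine libraries their deviations are mirror images, so these correlations cannot decide the pairing. WT 3 has no partner in the block fit, and what the lost calls mean was not tested. A pseudocount of 10 gave 171 within, by construction, and a mean of at least 50 gave 29, with fewer genes tested. Genes with no overlap numbered 295 above (316 to 349 with a library left out) and 38 below (43 to 70), since fewer libraries overlap less. The fit of all 8 libraries gave 210 above and limma-voom 176, with 142 and 140 of the 144 among them. No difference of a named gene changed sign after a call. With 2 lidocaine libraries, unseparated genes may still differ.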

Other observations

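Several receptor families were counted after their values were seen. Of 13 C-type lectins and lectin-like receptors 6 were above WT (46.2%, beside 25.7% of all 560) and none below, and the number above was 2 without lidocaine 1 and 2 without lidocaine 2. The median difference was 2.02, and 12 had both lidocaine values above all WT values (beside 52.7% of all 560). Beside those described, Klrc3, a natural killer receptor chain, was 2.80 above WT (SE 0.40) and the inhibitory Clec12a 1.37 above (SE 0.25), while Clec9a and Klrb1a did not pass. Of 18 immunoglobulin-like receptors 5 were above (27.8%, near the 25.7% of all 560, and 2 without either lidocaine library or without WT 2), among them Lilrb3l, with 9.44 and 9.91 in lidocaine ganglia, against 6.95, 6.70 and 6.85 in WT ganglia, and Siglech, at 0 in all WT libraries. Of 21 solute carriers 2 were above WT (9.52%, beside 25.7% of all 560), with a median difference of 0.35, beside 0.87 over all 560. The 2 were the phagosomal metal transporter Slc11a1 at 2.67 (SE 0.26) and the prostaglandin transporter Slco2a1 at 1.27 (SE 0.24).

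Genes in none of the gene lists numbered 381, of which 77 were above WT (20.2%, beside 25.7% of all 560) and 12 below. Chi3l1, a chitinase-like glycoprotein of inflamed tissue, was 2.65 above (SE 0.25), the apoptosis inhibitor Birc3 1.73 above (SE 0.16) and the ribonuclease Zc3h12a, which degrades cytokine transcripts, 1.85 above (SE 0.20). Hcar2, the receptor of niacin and ketone bodies, had 5.94 and 5.15 in lidocaine ganglia, against 1.96, 1.69 and 0.92 in WT ganglia. The pyrimidine receptor P2ry6 had 8.15 and 8.47 in lidocaine ganglia, against 6.05, 6.20 and 6.51 in WT ganglia.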
